A study of Homo sapiens with 6 samples.

Results

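Histone methyltransferases add methyl groups to lysine or arginine side chains of histone tails, and the 40 genes described here encode lysine and arginine methyltransferases of that kind together with close relatives. They were chosen by name from a fixed list of symbols, with the condition that the 6 libraries average 1 CPM or more (CPM are reads scaled by the authors to the size of each library). All 40 genes met it by that choice, and the table held 12865 genes at that level out of 14200. The genes were sorted by the residue their enzymes are best known to modify.

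The series measured poly(A) RNA of Huh7, an established human hepatocellular carcinoma line, by stranded RNA sequencing. There were 3 libraries labelled SETD5-deficient (called knockdown below) and 3 control libraries. The labels name siRNA transfection with RNAiMAX for silencing in all samples and do not give the siRNA the controls received. All cells were grown in DMEM with serum and an antibiotic-antimycotic. Whether the 3 libraries of each kind stem from independent cultures is not labelled. The p-values therefore cover no more than the spread among the 6 libraries, and that spread may be technical.

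Methylation of lysine 4, 36 or 79 on histone H3 is found at transcribed genes, whereas methylation of lysines 9 and 27 of H3 and of lysine 20 of H4 is linked to silencing and compaction. Most lysine enzymes carry a SET domain, DOT1L being the known exception, and they work in complexes whose other subunits guide and activate them. Arginine enzymes (PRMTs) form another family and also modify many proteins that are not histones. All of them draw the methyl group from S-adenosylmethionine.

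Recovered reads were 15919552 to 16609918 per knockdown library and 14038447 to 17095417 per control library, and single members had 65 to 5905 reads in a library. SETD5 itself was at 138 ± 2.21 CPM after knockdown and 208 ± 5.56 CPM in controls (SD, n = 3 each), a limma log2 fold change of -0.59 with an adjusted p of 1.15e-17, and an exact two-sided permutation p of 0.1, the smallest that 3 against 3 allows. Hepatocyte markers were abundant, summing over 10 genes to 42667 to 43018 CPM after knockdown and 45082 to 46042 CPM in controls, of which AFP made up the largest part. Of these 10 markers 3 rose (30%) and 6 fell (60%), beside 25.7% higher and 26.5% lower among all tested genes. TTR fell to 0.619, APOB to 0.682 and AFP to 0.95 times the control. GPC3 rose to 1.28, FGB to 1.18 and ALB to 1.07 times, and HNF4A was not called. In the endothelial list, PECAM1 and CDH5 summed to 0.614 to 0.938 CPM after knockdown and 0.786 to 1.35 CPM in controls. The 3 immune markers measured summed to 11.0 to 11.7 CPM after knockdown and 10.5 to 12.3 CPM in controls, and among them CD14 fell to 0.485 times the control. Of the stromal list, COL1A2, a collagen chain gene, rose to 2.09 times the control and LUM to 1.2 times, while PDGFRB fell to 0.722 times. The part of other cell types in the results below was not tested, and CD3E, VWF, KDR and DCN were not analysed here.

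Those of the 40 listed genes that changed were more often higher than lower after knockdown, and each of their changes was small. By limma with Benjamini-Hochberg adjustment over all tested genes, 17 of 40 members rose, 4 fell and 19 were not called. The rises led with KMT2A, KMT2E, NSD1, SETD1B and WHSC1L1, and the 4 falls were CARM1, EZH1, DOT1L and SETD3. The called share of members, 52.5%, stood beside 52.1% of all tested genes. In the higher direction the share was 42.5% of members and 25.7% of all tested genes, and in the lower direction 10.0% of members and 26.5% of all tested genes. The counts of the single residue groups below are to be read against these same shares of all tested genes. The median log2 fold change was 0.11 over the members and -0.001 over all tested genes, and the members' median was 0.0535 with a trend on coding length removed from each library. With that trend removed, KMT2B, KMT2C and ASH1L were no longer called higher, and SETD1A was called lower. The groups did not overlap in 25 members, 62.5%, against 57.3% of all tested genes. No member changed by more than 0.48 on the log2 scale. Tested for a change beyond 1.2-fold (limma's TREAT), only KMT2A (adjusted p = 0.000238) and KMT2E (adjusted p = 0.00681) were called among the 40, beside 11.4% of all tested genes. All log2 fold changes are differences of log2(CPM + 1), so those of weakly expressed genes are understated. In bulk RNA of this kind, fewer cells expressing a gene and less of its RNA per cell cannot be told apart.

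**Figure D1:**
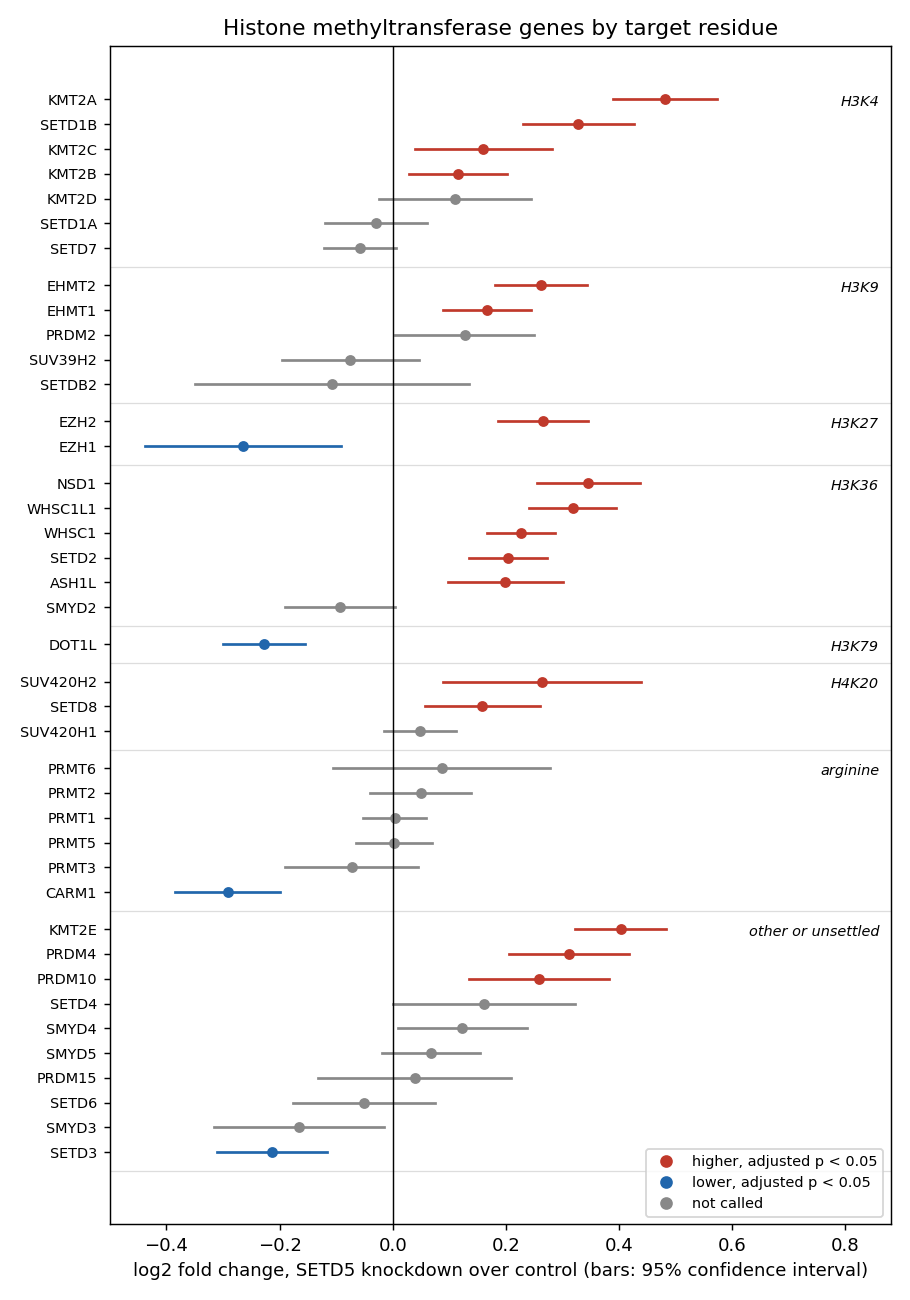
Log2 fold change of each of the 40 genes (knockdown over control, log2(CPM + 1) scale) with its 95% confidence interval from limma, sorted by target residue. Of the 6 H3K36 enzymes 5 lie above 0 with their whole interval, while 5 of the 6 arginine enzymes have intervals that span 0.

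Writers of H3K4 methylation were higher in 4 of 7 genes and lower in none, beside 25.7% higher and 26.5% lower among all tested genes. Those 4 genes all have coding lengths of at least 5000 bases, and 46.6% of all tested genes that long rose. KMT2A, the MLL1 protein that keeps HOX genes active and is rearranged in leukaemia, was at 82.8, 87.3 and 76.3 CPM in knockdown libraries 1 to 3, against 57.1, 61.6 and 56.7 CPM in controls 1 to 3. Every knockdown value lay above every control value. The mean was 1.40 times the control, with a log2 fold change of 0.48, a standard error of 0.0455 and a limma adjusted p of 3.46e-11. SETD1B, a catalytic subunit of the SET1 complex that places bulk H3K4 trimethylation, was at 49.1, 48.2 and 46.5 CPM after knockdown and 37.6, 37.5 and 38.8 CPM in controls. These groups also stood apart, with a log2 fold change of 0.33, a standard error of 0.0482 and a limma adjusted p of 4.64e-07.

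The closest relatives of these 2 H3K4 genes changed less or were not called. KMT2B, the sister of KMT2A, was at 95.3, 85.9 and 82.4 CPM after knockdown and 80.4, 81 and 81.1 CPM in controls, with a log2 fold change of 0.12 and a limma adjusted p of 0.0217. The call of KMT2B ended without knockdown library 1, where the log2 fold change was 0.06 and the adjusted p was 0.299, and without control library 1 (0.11, adjusted p = 0.059). SETD1A averaged 53.5 ± 1.25 CPM after knockdown and 54.6 ± 1.76 CPM in controls (SD, n = 3 each), and its 95% interval of -0.12 to 0.06 excluded a rise of the size seen in SETD1B.

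KMT2C and KMT2D, the MLL3 and MLL4 proteins that monomethylate H3K4 at enhancers, spread widely among knockdown libraries. KMT2C was at 55.8, 67.8 and 51 CPM after knockdown and 54.1, 50.4 and 50.4 CPM in controls. The groups overlapped, the log2 fold change was 0.16 with a limma adjusted p of 0.0242, and without knockdown library 2 it was 0.05 with an adjusted p of 0.481. Without knockdown library 3 it was 0.25, with an adjusted p of 0.000218. The KMT2C call also ended without control library 2 or 3, with adjusted p of 0.0792 and 0.0871. KMT2D was at 109.8, 119 and 85.4 CPM after knockdown, against 105, 85.6 and 97.9 CPM in controls, and was not called (log2 fold change 0.11, adjusted p = 0.165). Without knockdown library 3 it was called, with a log2 fold change of 0.25 and an adjusted p of 3.38e-05, and likewise without control library 1 (0.18, adjusted p = 0.0422). Among knockdown libraries both genes were highest in library 2 and lowest in library 3. KMT2C shares near-identical stretches with copies elsewhere in the genome, so its reads are uncertain. SETD7, which monomethylates H3K4 in vitro and many other proteins, was at 170.3, 175 and 167 CPM after knockdown and 178, 179.5 and 175 CPM in controls. The knockdown values all lay below the controls, yet the log2 fold change of -0.06 was not called (adjusted p = 0.125).

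**Figure D2:**
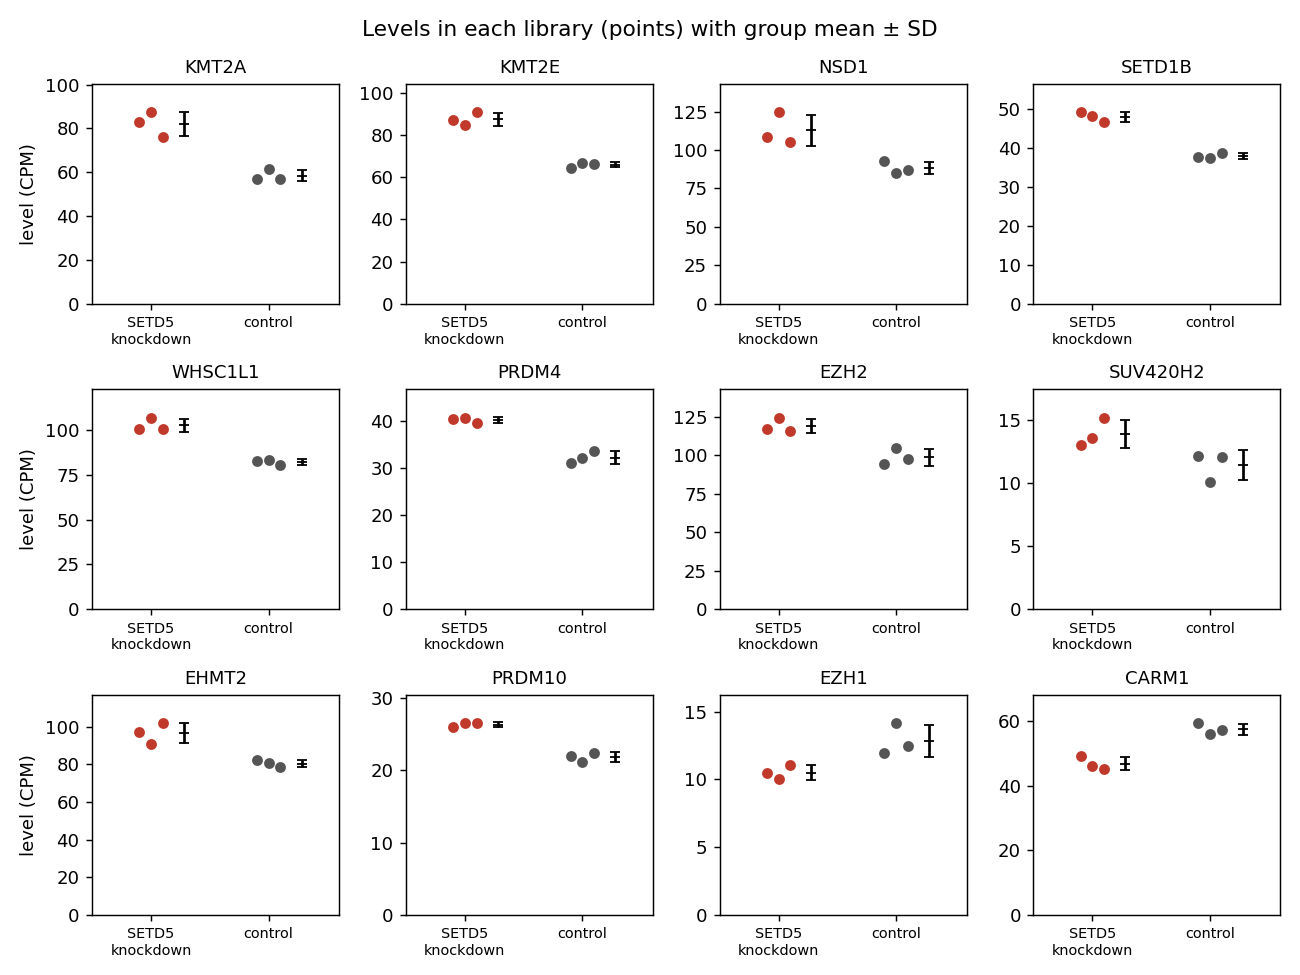
Level in CPM (linear axis from 0) of the 12 members called and changed by 0.25 or more on the log2 scale in either direction. Points are libraries 1 to 3 of each group and bars are the mean ± SD. The knockdown and control points stand apart in each panel, and the gap is smallest relative to the spread for SUV420H2 and EZH1.

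Enzymes of H3K36 methylation, the mark laid along gene bodies and active domains, rose in 5 of 6 genes, beside 25.7% of all tested genes. Among them NSD1, SETD2 and ASH1L have coding lengths of at least 5000 bases, where 46.6% of all tested genes rose. NSD1, which dimethylates H3K36 and is mutated in Sotos syndrome, was at 109, 125 and 105 CPM after knockdown and 92.6, 85.2 and 87.2 CPM in controls. All knockdown values lay above the controls, and the log2 fold change reached 0.35 (standard error 0.0448), at a limma adjusted p of 4.32e-08. WHSC1L1 (NSD3) was at 100.4, 107 and 101 CPM after knockdown, against 82.8, 83.2 and 80.2 CPM in controls, a log2 fold change of 0.32 with a standard error of 0.0376 and a limma adjusted p of 6.28e-09. WHSC1 (NSD2), the MMSET protein overexpressed in a class of myeloma, was at 284, 284 and 282 CPM after knockdown and 249.8, 244 and 233 CPM in controls. The SD of its knockdown values was 0.932 CPM, the groups did not overlap, and the log2 fold change was 0.23 with an adjusted p of 5.94e-08. All 3 members of the NSD family therefore rose.

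SETD2, the enzyme that trimethylates H3K36 behind RNA polymerase II, was at 133, 136 and 133 CPM after knockdown and 114, 115 and 120.3 CPM in controls. The log2 fold change came to 0.20 (standard error 0.0342) with a limma adjusted p of 4.98e-06, and the groups did not overlap. With the trend on coding length removed it was 0.09. ASH1L, which dimethylates H3K36 and counters Polycomb, averaged 63.0 ± 5.43 CPM after knockdown and 54.7 ± 2.72 CPM in controls (SD, n = 3 each; log2 fold change 0.20, limma adjusted p = 0.00109). The ASH1L call, 1 of the 5 rises, ended without limma's mean-variance trend (adjusted p = 0.059) and with the trend on coding length removed (0.08, adjusted p = 0.161). SMYD2, which also methylates proteins other than histones, was not called at 47.1 ± 2.08 CPM after knockdown and 50.3 ± 2.28 CPM in controls.

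The H3K27 enzymes of Polycomb repressive complex PRC2 moved in opposite directions. EZH2, the subunit that dominates in dividing cells, was at 117, 124 and 115 CPM after knockdown and 94, 105 and 97.2 CPM in controls, a log2 fold change of 0.27 with a standard error of 0.0392 and a limma adjusted p of 5.09e-07. EZH1, its weaker paralog of resting cells, was at 10.4, 10.0 and 11.1 CPM after knockdown and 11.9, 14.1 and 12.4 CPM in controls, a log2 fold change of -0.26 with a standard error of 0.0852 and a limma adjusted p of 0.0092. Neither gene's groups overlapped. The EZH1 call ended without control library 2, at a log2 fold change of -0.20 and an adjusted p of 0.0772. Per kilobase of transcript, EZH2 stood at 45.0 CPM after knockdown and 37.4 CPM in controls, and EZH1 at 2.27 CPM after knockdown and 2.78 CPM in controls, with the length of a single GENCODE 29 transcript for each gene.

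The promoters of this pair are shown because the genes encode alternative subunits of PRC2 and went opposite ways. Each run is 250 bases before to 50 after the RefSeq start of the gene, GRCh38.p14, read along the gene's strand, with capitals on every match, on either strand, to any of 9 words: the CCAAT box, the E2F forms TTTGGCGC, TTTCGCGC and TTTCCCGC, the ETS word CCGGAAG, the NRF1 word GCATGCGC, the SP1 word GGGCGG, the YY1 word AAGATGGC and the TATA box word TATAAA.
EZH2, chr7:148884242-148884541, minus strand: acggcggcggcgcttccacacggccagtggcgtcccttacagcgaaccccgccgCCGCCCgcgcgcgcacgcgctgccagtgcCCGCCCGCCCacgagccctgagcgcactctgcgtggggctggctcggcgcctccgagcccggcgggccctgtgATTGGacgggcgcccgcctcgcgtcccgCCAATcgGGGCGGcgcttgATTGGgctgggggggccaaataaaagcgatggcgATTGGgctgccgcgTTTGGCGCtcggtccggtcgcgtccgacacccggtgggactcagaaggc
EZH1, chr17:42744991-42745290, minus strand: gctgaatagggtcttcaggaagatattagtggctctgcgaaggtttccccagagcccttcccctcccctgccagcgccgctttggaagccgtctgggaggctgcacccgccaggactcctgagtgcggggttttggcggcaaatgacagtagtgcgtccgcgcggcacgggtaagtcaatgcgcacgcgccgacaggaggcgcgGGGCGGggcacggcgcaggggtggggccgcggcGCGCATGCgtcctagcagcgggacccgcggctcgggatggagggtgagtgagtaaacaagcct
In EZH2 the capitals are 4 matches to CCAAT, from 94 to 13 bases before the start, TTTGGCGC (a form of the E2F site) from base 2 after it, and 4 matches to GGGCGG (the GC box bound by SP1), of which 2 overlap. EZH1 holds none of the first 2 words and has GGGCGG and GCATGCGC (part of the NRF1 site). Only exact words were counted. Both runs also hold GCACGCGC, which differs from GCATGCGC by a single letter and is not in capitals. Of 11096 promoters of genes in the table, 36.8% hold CCAAT, 1.11% TTTGGCGC, 5.47% GCATGCGC and 68.6% GGGCGG. Among the 37 members with a promoter sequence, EZH2 was alone in holding TTTGGCGC. WHSC1 was alone in holding TTTCCCGC, which 2.5% of the promoters hold, and CCAAT was in 13. Such matches describe the letters of these windows and say nothing of which factor binds in these cells.

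Cell cycle genes were measured beside EZH2, since it is a known E2F target in dividing cells. Of 15 such genes, 7 rose (46.7%), 1 fell (6.67%) and 7 were not called, beside 25.7% higher and 26.5% lower among all tested genes. E2F1 averaged 100.2 ± 2.61 CPM after knockdown and 85.6 ± 2.26 CPM in controls (SD, n = 3 each), and MCM3 522 ± 1.18 CPM after knockdown and 425 ± 3.92 CPM in controls. MKI67, a marker of proliferating cells, was not called at 239 ± 16.5 CPM after knockdown and 253 ± 7.46 CPM in controls, and CCNA2 fell to 0.862 times the control. Their part in the EZH2 change was not tested.

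Among the 5 listed H3K9 enzymes, which mark silent chromatin, the heterodimer partners EHMT1 and EHMT2 both rose and 3 were not called. The list does not cover all H3K9 enzymes. EHMT2 (G9a) was at 97, 91.1 and 102 CPM after knockdown and 82.1, 80.6 and 78.4 CPM in controls, with a log2 fold change of 0.26, a standard error of 0.0402 and a limma adjusted p of 1.06e-06. EHMT1 (GLP) was at 96.9, 94.3 and 98.5 CPM after knockdown, against 88.6, 82 and 87.4 CPM in controls, a log2 fold change of 0.17 with an adjusted p of 0.000408. Neither gene's knockdown values overlapped its controls. SUV39H2, a writer of H3K9 trimethylation at heterochromatin, was at 28 ± 0.482 CPM after knockdown and 29.6 ± 2.24 CPM in controls, SETDB2 at 5.54 ± 0.568 and 6.12 ± 1.38 CPM in knockdown and controls, and PRDM2 (RIZ) at 26.3 ± 1.27 and 24.0 ± 0.417 CPM in knockdown and controls. None of these 3 was called. The interval of SETDB2, from -0.35 to 0.13, held falls as large as those called in other members, but only rises smaller than most of those called.

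DOT1L, the H3K79 enzyme that lacks a SET domain, fell. DOT1L was at 133, 130.3 and 126 CPM after knockdown and 157, 144 and 155 CPM in controls. All knockdown values lay below the controls, with a log2 fold change of -0.23, a standard error of 0.0357 and a limma adjusted p of 1.55e-06.

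The H4K20 enzymes act in sequence, SETD8 adding the first methyl group and SUV420H1 and SUV420H2 the next. SETD8, which is needed for chromosome compaction in mitosis, was at 41.1, 40.9 and 41.3 CPM after knockdown and 37.1, 37.6 and 35.4 CPM in controls (log2 fold change 0.16, limma adjusted p = 0.00779). SUV420H2 was at 13, 13.5 and 15.1 CPM after knockdown and 12.1, 10.0 and 12.1 CPM in controls. The groups did not overlap, and the log2 fold change reached 0.26 (standard error 0.086), at a limma adjusted p of 0.01. Leaving out knockdown library 3 or control library 2 ended the call of SUV420H2, with adjusted p of 0.0788 and 0.0932. SUV420H1 was at 179, 184 and 174 CPM after knockdown and 172, 174 and 173 CPM in controls and was not called (log2 fold change 0.05, 95% interval -0.02 to 0.11).

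Of the 6 arginine methyltransferases 1 fell and none rose, beside 26.5% lower and 25.7% higher among all tested genes. CARM1, the coactivator enzyme that places asymmetric dimethylarginine on histone H3, was at 49.1, 46.1 and 45.3 CPM after knockdown and 59.4, 56.1 and 57.2 CPM in controls. Its knockdown values all lay below the controls, with a log2 fold change of -0.29, a standard error of 0.046 and a limma adjusted p of 1.7e-06. PRMT1, the main source of asymmetric dimethylarginine in most cells, was at 342, 345 and 342 CPM after knockdown and 346, 335 and 346 CPM in controls. The groups overlapped and the 95% interval of its log2 change was -0.05 to 0.06. PRMT5, the main source of symmetric dimethylarginine, was at 168 ± 3.88 CPM after knockdown and 168 ± 6.43 CPM in controls, with an interval of -0.06 to 0.07. PRMT2, PRMT3 (which methylates a ribosomal protein) and PRMT6 were not called either, with log2 fold changes of 0.05, -0.07 and 0.09. The interval of PRMT6 ran from -0.10 to 0.28.

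The last 10 members have other or unsettled substrates, and 3 rose and 1 fell. KMT2E, which has a SET domain without clear methyltransferase activity and reads H3K4 trimethylation, was at 87.1, 84.6 and 90.8 CPM after knockdown and 64.6, 66.7 and 66.5 CPM in controls. Its groups stood far apart relative to their spread, with a log2 fold change of 0.40, a standard error of 0.0398 and a limma adjusted p of 9.46e-11. The coding length of KMT2E is 5574 bases, and 46.6% of all tested genes of at least 5000 bases rose. SETD5 is the closest relative of KMT2E among human SET-domain proteins. PRDM4 was at 40.6, 40.8 and 39.7 CPM after knockdown, against 31.1, 32.2 and 33.7 CPM in controls, a log2 fold change of 0.31 with a limma adjusted p of 4.44e-06. PRDM10 was at 25.9, 26.5 and 26.5 CPM after knockdown and 22, 21.1 and 22.4 CPM in controls, a log2 fold change of 0.26 with a limma adjusted p of 0.000531. Both are zinc finger proteins with a PR domain, a variant of the SET domain, and neither gene's groups overlapped. SETD3, now known as the methyltransferase of a histidine of actin, fell to 42.2 ± 0.791 CPM after knockdown, against 49.1 ± 2.2 CPM in controls (SD, n = 3 each; limma adjusted p = 0.000321). SETD4, SETD6 (which methylates the NF-kB subunit RELA), SMYD3, SMYD4, SMYD5 and PRDM15 were not called, with log2 fold changes between -0.17 and 0.16. In SETD4, SMYD3 and SMYD4 the groups did not overlap, and their adjusted p were 0.0856, 0.0587 and 0.0624. Without limma's mean-variance trend these 3 were called, with adjusted p of 0.0292, 0.0468 and 0.0494.

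Ratios between related genes within a library were compared for 10 pairs, so that scaling of a library drops out. EZH2 had 11.2, 12.4 and 10.4 times the CPM of EZH1 in knockdown libraries 1 to 3, against 7.87, 7.41 and 7.82 times in controls 1 to 3. The groups stood apart, and the ratio was 1.47 times that of the controls. KMT2A had 0.869, 1.02 and 0.926 times the CPM of KMT2B after knockdown and 0.710, 0.760 and 0.700 times in controls, so that this ratio was 1.29 times the control. SETD1A had 1.08, 1.09 and 1.18 times the CPM of SETD1B after knockdown and 1.40, 1.46 and 1.45 times in controls, a ratio at 0.776 times the control. PRMT1 to CARM1 was at 1.23 times the control ratio, and the knockdown and control values of SUV420H1 to SUV420H2 and of WHSC1L1 to WHSC1 did not overlap either, at 0.849 and 1.07 times. For these 6 pairs the exact two-sided permutation p was 0.1, the smallest possible with 3 against 3, and 0.167 adjusted over the 10 pairs, so no pair could pass 0.05. EHMT1 to EHMT2, NSD1 to WHSC1, KMT2C to KMT2D and PRMT1 to PRMT5 overlapped between groups, at 0.935, 1.09, 1.04 and 1.00 times the control.

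**Figure D3:**
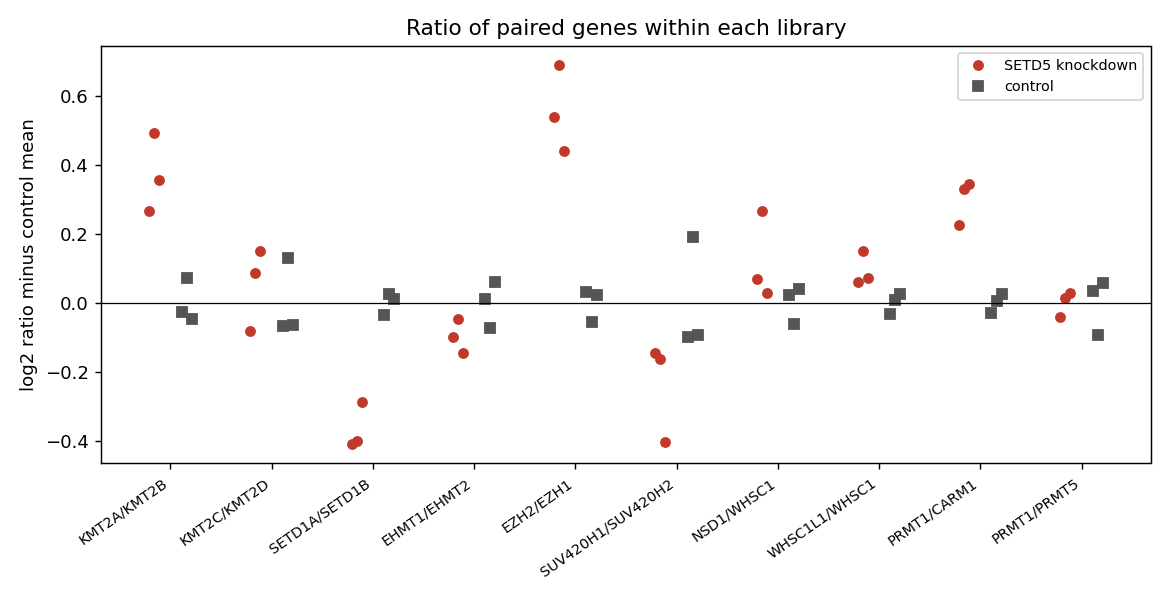
Log2 ratio of the CPM of the named genes within each library, minus the mean of the 3 control libraries, for 10 pairs. Circles are knockdown and squares control libraries 1 to 3; EZH2/EZH1 and KMT2A/KMT2B lie above and SETD1A/SETD1B below all controls.

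Several of these enzymes are very long proteins, and the share of genes that rose was larger among long genes in the whole table. Of the 11 members with a coding length of at least 5000 bases 8 rose and none fell (median log2 fold change 0.20), while of the 29 shorter members 9 rose and 4 fell (median 0.05). Among all 528 tested genes of at least 5000 bases, 46.6% rose and 15.7% fell, with a median of 0.10, and among 11463 shorter genes 26.0% rose and 27.6% fell, with a median of -0.002. Long genes also varied between knockdown libraries: the 11 long members lay at a median of -0.003, 0.02 and -0.09 log2 from their group mean in knockdown libraries 1 to 3, and at -0.01, -0.02 and 0.01 in controls 1 to 3. The shift was smaller over all 528 long genes, at 0.005, 0.034 and -0.041 in knockdown libraries 1 to 3 and -0.0004, -0.002 and 0.003 in controls 1 to 3. With the trend of each library on coding length removed, KMT2A kept a log2 fold change of 0.33, NSD1 of 0.23, KMT2E of 0.32 and SETD1B of 0.24, and all 4 were still called. SETD2 was still called at 0.09 (adjusted p = 0.018), and SETD1A became a called fall at -0.11 (adjusted p = 0.0457). KMT2B was then at 0.0007 (adjusted p = 0.99) and ASH1L at 0.08 (adjusted p = 0.161), and the small differences of KMT2C (-0.005) and KMT2D (-0.07) turned negative. The part of length in the remaining changes was not tested.

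**Figure D4:**
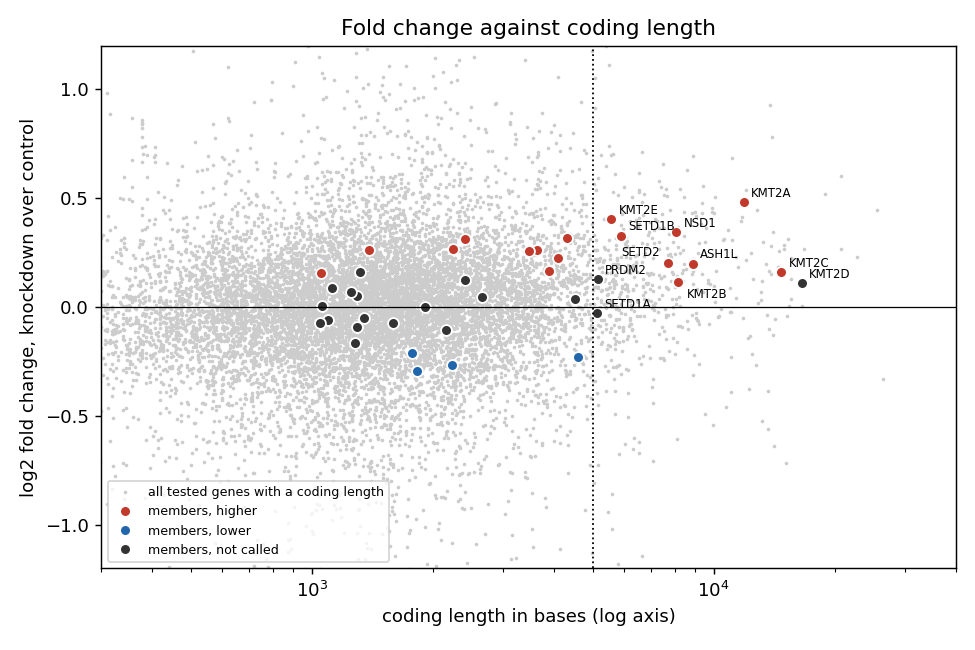
Log2 fold change (knockdown over control) against coding length in bases on a log axis, for tested genes with a coding length (grey) and the 40 members (coloured by call). Members right of the dotted line at 5000 bases are named, and 8 of these 11 were called higher; 314 of the 11991 genes lie outside the drawn range.

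Subunits that guide and activate these enzymes, and genes that supply the methyl donor, were taken from lists of 56 genes. Of 53 tested, 21 rose (39.6%) and 11 fell (20.8%), beside 25.7% higher and 26.5% lower among all tested genes, against which the counts of the single lists below are also to be read. The core shared by all H3K4 complexes split, with WDR5, RBBP5 and DPY30 higher and ASH2L lower, at 1.14, 1.10, 1.18 and 0.893 times the control. Of 8 further partners of the SET1, MLL1 and MLL2 complexes, 5 rose and 1 fell. The fall was that of HCFC2, at 11.8 ± 1.34 CPM after knockdown and 15 ± 0.991 CPM in controls (SD, n = 3 each; limma adjusted p = 0.00146). KDM6A, the H3K27 demethylase of the MLL3 and MLL4 complexes, rose to 141 ± 0.573 CPM, against 105 ± 2.05 CPM in controls (limma adjusted p = 7.75e-13).

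Partner genes of PRC2 went both ways, with 4 of 10 higher and 3 lower, and the core genes EED and SUZ12 were among the 3 not called. RBBP4, a histone-binding subunit that also serves other complexes, rose to 287 ± 6.31 CPM after knockdown, against 205 ± 7.15 CPM in controls. LCOR rose to 1.37 times, MTF2 to 1.26 times and JARID2 to 1.27 times the control, and PHF19 fell to 0.769 times (limma adjusted p = 1.58e-07). The other falls were those of RBBP7 and AEBP2, to 0.921 and 0.88 times the control. Around DOT1L, whose own level fell, 4 of 6 partner genes rose and 1 fell. AFF4, a scaffold of the super elongation complex, was at 127 ± 3.49 CPM after knockdown and 98.6 ± 1.4 CPM in controls, MLLT1 rose to 1.2 times and MLLT3 to 1.57 times the control. ZNF644, a partner of EHMT1 and EHMT2, rose to 1.35 times the control (limma adjusted p = 1.55e-09), and WIZ and CDYL were not called. None of the 5 PRMT partners was called.

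Methyl donor genes gave 4 falls and 2 rises among 13 tested. MAT1A, the S-adenosylmethionine synthetase of differentiated liver, was at 2.81, 2.39 and 2.51 CPM after knockdown and 6.09, 5.78 and 6 CPM in controls. It fell to 0.432 times the control (log2 fold change -0.96, standard error 0.115, limma adjusted p = 7.5e-09). MAT2A, the synthetase of most other cells and of liver tumours, was not called at 360 ± 17.2 CPM after knockdown and 363 ± 5.38 CPM in controls. GAMT, which consumes the donor to make creatine, fell to 133 ± 4.66 CPM, against 179 ± 5.64 CPM in controls (limma adjusted p = 7.51e-13), and AHCY, which clears the by-product of methylation, was not called.

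**Figure D5:**
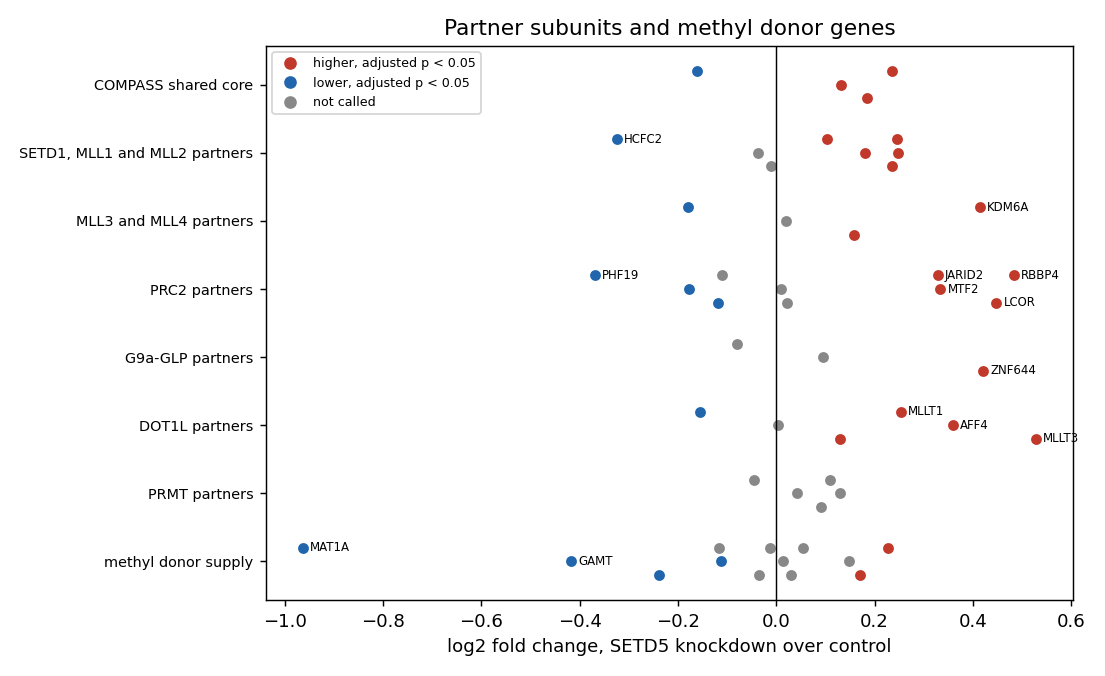
Log2 fold change (knockdown over control) of the 53 tested partner and methyl donor genes, a row per list, coloured by call, with names for called genes of at least 0.25 in absolute value. MAT1A lies far to the left of all others, and MLLT3 and RBBP4 farthest to the right.

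The 3' UTRs of the members were searched for GCACCT, a word that an earlier scan of these same fold changes had picked out, so its link with falls in this table is not independent evidence. Of 39 members with a 3' UTR sequence 14 held it (35.9%), against 28.6% of 11898 tested genes. The length of the 3' UTR was not taken into account. Over all tested genes 34.6% of those with the word and 24.1% of those without it fell. The shares that rose were 24.6% with the word and 27.8% without it. Of the 14 members with it 6 rose and 2 fell, with a median log2 fold change of 0.13, and of the 25 without it 10 rose and 2 fell, with a median of 0.09. All sites of the 8 called members that hold the word are shown, so that both directions can be seen side by side, from GENCODE 29 transcripts with GRCh38 coordinates, read along the transcript and with the word in capitals.
KMT2A, chr11:118522716-118522745, plus strand: acaggattcctaGCACCTccggtgtcaaaa
NSD1, chr5:177295836-177295865, plus strand: gccccattgaggGCACCTaggaacccttgg
NSD1, chr5:177296597-177296626, plus strand: tctgtattgagaGCACCTgcctgctgactt
PRDM4, chr12:107733082-107733111, minus strand: taagtcacccatGCACCTggtcattgtgtc
WHSC1, chr4:1980061-1980090, plus strand: ccctctgccaggGCACCTactgagaggtgc
WHSC1, chr4:1981498-1981527, plus strand: aaaccagcatctGCACCTaaacccataccc
WHSC1, chr4:1981592-1981621, plus strand: gaaactcttcagGCACCTgaagtgagaacc
EHMT1, chr9:137835620-137835649, plus strand: ccgttgacgctgGCACCTtctgttgatttt
SETD8, chr12:123408324-123408353, plus strand: ccgcttttctggGCACCTtgaagcatcagg
CARM1, chr19:10922083-10922112, plus strand: ccaggtcccttaGCACCTgtccccctgcct
DOT1L, chr19:2232092-2232121, plus strand: agcctggtgctgGCACCTggcctgagtttc
KMT2A, NSD1, PRDM4, WHSC1, EHMT1 and SETD8 were higher after knockdown, and DOT1L and CARM1 were lower. The letters around the word differ between these sites, and whether any of them is bound in these cells was not tested.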

How the data were processed

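The 40 members and all gene lists were chosen with earlier results of these data known. The authors deposited 1 table of log2 values, 14200 genes by 6 libraries; the values are log2(CPM + 1), since 2 to the power of a value minus 1 falls on whole multiples of what a single read is worth in 100% of cases (within 0.01). The submitters' processing notes name STAR 2.5.1, R 3.3.0 and the builds hg19 and mm10, with no role. How reads were aligned, counted and scaled is not stated in the labels or the file header. The CPM of a library summed to between 993401 and 1004330. The symbols are those of the table; SETD8, SUV420H1, SUV420H2, WHSC1 and WHSC1L1 are now KMT5A, KMT5B, KMT5C, NSD2 and NSD3.

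The 12865 genes averaging 1 CPM or more were tested with limma 3.58.1 in R 4.3.3 (lmFit, eBayes with trend, group as the only term, two-sided) on the deposited log2 values, with Benjamini-Hochberg adjustment over all of them and a threshold of 0.05. Levels are CPM, mean ± SD over 3 libraries. "Rose", "fell" and "called" refer to that threshold. Each library counted as a replicate. Library pairs of a group differed beyond sampling (chi-square per gene 1.26 to 2.15, where sampling gives about 1). That cannot tell independent cultures from separate preparations of the same culture.

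All 40 members are named. Values of every library are given for called members that changed by 0.25 or more on the log2 scale, and for the member of each residue group with the largest change and that with the most reads; KMT2B, KMT2C, KMT2D, SETD2 and SETD8 were added after their values were seen. Coding lengths and 3' UTRs came from 1 GENCODE 29 transcript per gene, which matched all 40 members and 12461 table symbols directly and 399 by another name. Promoters are from RefSeq and matched 37 members. The script was tested on simulated data.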

Additional observations from a re-analysis of the deposited data

How the results depend on the processing

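Across 18 alternatives, 16 of the 21 called members kept their direction and their call in all but the TREAT test, wherever they were tested; the exceptions were KMT2B, KMT2C, ASH1L, EZH1 and SUV420H2. Against a change of 1.2-fold (TREAT), 1466 genes, 2 members (none lower, so 0), and 5 partner genes higher and 2 lower were called. With genes carrying GCACCT in their 3' UTR left out, 11 members were higher and 2 lower, and 7 partner genes lower, by construction on fewer genes. The members' median log2 fold change was 0.0535 with the coding length trend removed, with or without the replicate block, and 0.078 to 0.123 when each library was left out. Leaving out each library gave 15 to 18 members higher, 3 to 5 lower and 5981 to 6324 genes called. Without the mean-variance trend KMT2B, KMT2C and ASH1L were not called (adjusted p = 0.146, 0.237 and 0.059), while SETD4, SMYD3 and SMYD4 were (0.0292, 0.0468 and 0.0494).

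Of the members whose sign changed, only KMT2C had been called. With the coding length trend removed KMT2C was at -0.0054, KMT2D at -0.066, PRMT5 at -0.0067 and PRDM15 at -0.026, with the same values under the replicate block with the coding length trend removed. Leaving out each library gave PRMT5 -0.0183 to 0.0334, PRDM15 -0.0334 to 0.14, PRMT1 -0.0119 to 0.011 and SETDB2 -0.265 to 0.0201. The cause was not tested. Deviations from the group means correlated at r = -0.011, 0.054 and 0.042 between same-numbered libraries of the 2 groups. Between differently numbered libraries r ran from -0.060 to 0.021. Values this small do not decide whether the numbers pair the libraries. Under the replicate block 18 members were higher and 4 lower with 6898 genes called; the added member was KMT2D (adjusted p = 0.0276), and no other member's call changed. The planned count models on recovered reads were not run; voom on those reads was added after seeing the data. Members with few reads, such as SETDB2 with 65 to 108, allow no statement on small changes.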
